A study of Mus musculus with 6 samples.

Results

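The 10 genes described here are 7 inhibitors of cyclin-dependent kinases (Cdkn1a, Cdkn1b, Cdkn1c, Cdkn2a, Cdkn2b, Cdkn2c and Cdkn2d) and 3 genes of the p53 axis (Trp53, Mdm2 and Ccng1). They were chosen by gene symbol and are 10 of the 23473 RefSeq rows in a table of 56826 rows. Bulk RNA-seq was performed on tumor endothelial cells (TECs) that were captured with CD31 beads from Lewis lung carcinoma (LLC) tumors, and 6 libraries were compared. All mice were C57BL/6 with a labelled age of 8 weeks and carried LLC tumors. The 3 control (Ctrl) mice have the labelled genotype wild type. The 3 NIC eCA mice carry Cdh5-Cre ERT2 and a Rosa26 allele in which a floxed stop precedes the Notch1 intracellular domain, so that tamoxifen turns on Notch activation in cells that express Cdh5. Each library came from its own mouse, and tumors were collected on different days according to the labels. The p-values below measure the spread between these 6 libraries.

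Cyclin-dependent kinases drive the cell through its division cycle, and their inhibitors bind them or their cyclin complexes and hold the cycle back. The CIP/KIP proteins act on several cyclin-kinase complexes, while the INK4 proteins bind the partner kinases of D-type cyclins and so keep the retinoblastoma protein active. The p53 protein, encoded by Trp53, is a transcription factor activated by stress, Cdkn1a, Mdm2 and Ccng1 are among its classical targets, and Mdm2 marks p53 for degradation.

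Levels are given in RPKM, reads scaled to the length of the row and to the total of the library. Differences were fitted with limma on log2(RPKM + 1), and a gene was called at an adjusted p under 0.05 over 12320 RefSeq rows with a mean of at least 1 RPKM. On this scale the fold change of a weakly expressed gene comes out too small. Ratios per depth below use the reads on all rows, from 35303191 to 39823498 per library. Depth on RefSeq rows ranged from 27793301 to 30769916 reads. The ribosomal precursor row Rn45s took 3.86%, 6.40% and 1.87% of these reads in Ctrl and 0.825%, 1.06% and 1.92% in NIC eCA libraries, highest in Ctrl replicate 2, and its part in the results was not tested.

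Of the 10 genes, 9 passed the minimum and 3 were called, all of them higher in NIC eCA libraries, where 5.88% of all tested rows were called higher. None of the 9 was called lower, where 7.68% of tested rows were, and at an unadjusted limma p under 0.05 the numbers were 5 higher and 1 lower, beside 14.4% and 21.1% of all tested rows. Cdkn1c and Cdkn2b passed the minimum only through the NIC eCA libraries, since their Ctrl means were under 1 RPKM, so the count of genes that passed supports no statement on direction. When either NIC eCA replicate 1 or 2 was left out, 0 of the 9 were called, and 1 was called without Ctrl replicate 1, Ctrl replicate 2 or NIC eCA replicate 3. Over all rows, 1671 (13.6%) were called, 725 higher and 946 lower, so that 43.4% of the calls were higher. That share was 57.8% after quantile normalization, 62.3% after trimmed mean scaling, 74.1% with the trend on row length removed and, in the other direction, 33.8% with limma voom on the reads. With 1 library left out it ranged from 38.0% (without NIC eCA replicate 3) to 96.3% (without NIC eCA replicate 2). All calls together numbered 27 without NIC eCA replicate 2, 105 without NIC eCA replicate 1, 379 without Ctrl replicate 2 and 1035 without Ctrl replicate 1.

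**Figure D1:**
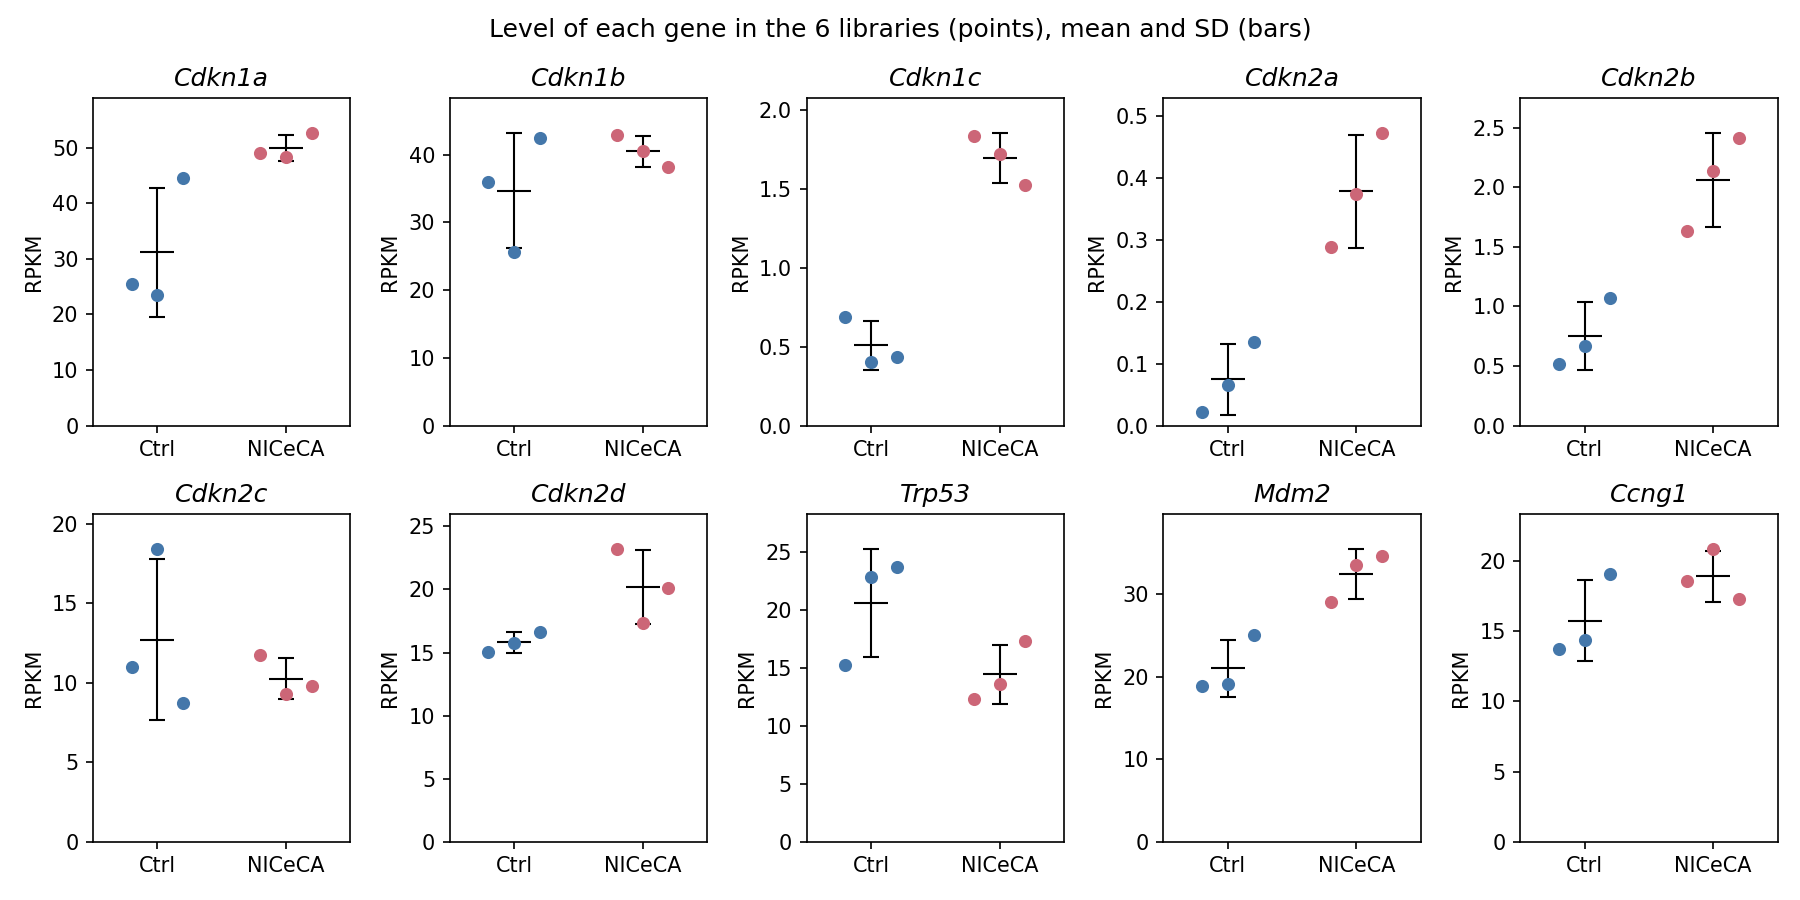
Level of each of the 10 genes in RPKM (vertical axes, each from 0) in the 3 Ctrl and 3 NIC eCA libraries, with 1 point per library and bars for the mean and SD. The NIC eCA points of 6 genes, Cdkn1a, Cdkn1c, Cdkn2a, Cdkn2b, Cdkn2d and Mdm2, lie above every Ctrl point, and the groups overlap for the other 4.

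The libraries were checked against markers of the labelled cell type and of other cells. For comparison, 5509 of all 12320 tested rows had positive fold changes, 5.88% were called higher and 7.68% lower. All 15 endothelial markers were tested and all had positive fold changes, 2 of them called (Cd93 and Flt1), with a median log2 fold change of 0.66. Their summed level was 772, 319 and 414 RPKM in Ctrl replicates 1, 2 and 3 and 697, 868 and 827 RPKM in the NIC eCA replicates. Ctrl replicate 1 therefore lay among the NIC eCA libraries, and Ctrl replicate 2 was the lowest.

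RNA of other cells was present in every library, although the purity of the TECs is over 90% per the labels. The values below are therefore those of a CD31 bead fraction. The 11 macrophage markers summed to 10128, 7192 and 7142 RPKM in Ctrl and 9457, 8562 and 5515 RPKM in NIC eCA libraries, more than the endothelial markers in each of them, and Lyz2 was the most abundant. Of these 11, 3 were called higher (Cd68, Cd14 and Itgam) and 0 lower, while 6 had negative fold changes that were not called, among them Lyz2 (-0.17) and C1qa (-0.54), and the median was -0.17. Of 9 neutrophil markers tested, 8 were called higher, and the summed level of the list went from 124, 209 and 284 RPKM to 655, 924 and 1749 RPKM and exceeded the endothelial sum in NIC eCA replicates 2 and 3. Ngp, 1 of these 8, passed the minimum only through the NIC eCA libraries, at means of 0.424 RPKM in Ctrl and 2.11 RPKM in NIC eCA. With no minimum, 5 of the 8 were called, Ngp among them. S100a9 was the most abundant by the mean of all 6 libraries, although S100a8 was above it in NIC eCA replicates 1 and 2 and Retnlg in Ctrl replicate 1.

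Of the platelet markers, Pf4 and Ppbp rose. The list summed to 126, 116 and 198 RPKM in Ctrl and 1308, 1211 and 1175 RPKM in NIC eCA libraries, mostly from Pf4. The other 2 tested, Itga2b (log2 fold change 0.26) and Gp1bb (-0.26), overlapped between the groups and were not called, and Gp9, Gp6 and Treml1 had means under 1 RPKM. Pericyte and smooth muscle markers summed to 40.3, 33.4 and 47.7 RPKM against 75.8, 64.1 and 118 RPKM, with Rgs5 and Kcnj8 called higher of 8 tested. Fibroblast markers, led by Col3a1, summed to 321, 558 and 386 RPKM against 196, 153 and 311 RPKM, and 3 of 6 tested were called lower (Lum, Pdgfra and Col3a1). Col3a1 made up most of the sum, and Col1a1 (log2 fold change 0.10) and Col1a2 (0.55) had positive fold changes that were not called.

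Of the remaining marker lists, 1 of 8 tested T and NK cell genes was called higher (Gzmb), 1 of 2 tested epithelial genes was called lower (Krt18), and 0 of 4 erythroid genes were called by limma, by voom or at an unadjusted p under 0.05. Negative fold changes, not called, were found for 5 of the 8 T and NK cell genes, among them Cd8a (-0.68), whose groups were separate. The other epithelial gene tested, Cdh1, had a log2 fold change of 0.51 and was not called. Proliferation markers all had negative fold changes (12 of 12, beside 55.3% of all tested rows), and 2 were called lower, Mki67 and Cenpf. They summed to 117.9, 199 and 151 RPKM in Ctrl and 109.8, 94.8 and 127 RPKM in NIC eCA libraries, so that the groups overlapped and Ctrl replicate 2 was the highest. Mcm6 was the most abundant by the mean of all 6 libraries, but Mki67 was above it in each Ctrl library and Top2a in replicate 3 of both groups. Both calls were lost without Ctrl replicate 2, NIC eCA replicate 1 or NIC eCA replicate 2, after quantile normalization, with no minimum and with the length trend removed. Of the 24 marker genes called, those still called without NIC eCA replicate 2 were Mmp8, Mmp9, Pf4 and Ppbp, and 5 were called without NIC eCA replicate 1, 8 without Ctrl replicate 2, 16 without Ctrl replicate 1 or Ctrl replicate 3 and 17 without NIC eCA replicate 3. In bulk samples, fewer cells of a type and less RNA per cell cannot be told apart, and the part of these cells in the results below was not tested. With the endothelial marker mean of each library as a covariate, 0 of the 12320 rows were called, while 1202 had an unadjusted limma p under 0.05 in the higher and 1007 in the lower direction. The 9 genes that passed the minimum were then not called either, the smallest adjusted p among them being 0.191. The fold changes of the 3 genes called without the covariate stayed near their size, at 0.72 (SE 0.19) for Cdkn1c, 0.88 (SE 0.24) for Cdkn2b and 0.63 (SE 0.21) for Mdm2, with larger standard errors.

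Cdkn1a encodes p21, which binds cyclin-kinase complexes and the replication clamp PCNA. It had 25.4, 23.6 and 44.5 RPKM in Ctrl replicates 1, 2 and 3 and 49.0, 48.3 and 52.6 RPKM in NIC eCA replicates 1, 2 and 3. The NIC eCA libraries lay close together above all Ctrl libraries, and Ctrl replicate 3 came near them. Its log2 fold change was 0.72 (SE 0.23), and the limma adjusted p of 0.0687 missed the threshold. The call was made without Ctrl replicate 3 (adjusted p = 0.00937) and after trimmed mean scaling (adjusted p = 0.0470), over a range of 0.00937 to 0.270 in 16 alternatives. Cdkn1a lies at chr17:29090986-29100722 on the plus strand, in GRCm38 positions.

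Cdkn1b encodes p27, the inhibitor best known for holding cells in quiescence. It had 36.0, 25.5 and 42.4 RPKM in Ctrl and 42.8, 40.4 and 38.2 RPKM in NIC eCA libraries. The groups overlapped, with Ctrl replicate 2 the lowest library. Its log2 fold change of 0.25 (SE 0.19, adjusted p = 0.369 by limma) was within the spread between replicates, and it was 0.049 without Ctrl replicate 2, 0.40 without Ctrl replicate 3 and 0.072 after quantile normalization, never called.

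Cdkn1c encodes p57, an imprinted inhibitor with roles in development and stem cell quiescence. It had 0.686, 0.401 and 0.436 RPKM in Ctrl and 1.83, 1.72 and 1.52 RPKM in NIC eCA libraries. Each NIC eCA library was above each Ctrl library, although the gene was among the lowest tested, in the lowest 1.38% by mean level. These levels rest on 31 to 130 reads per library, and per depth the reads were 3.34 times as many in NIC eCA libraries (exact 95% interval 2.70 to 4.15, for counting error only). On the log2 scale Cdkn1c rose by 0.84 (SE 0.15, adjusted p = 0.0213 by limma), and it was 1.59 with a pseudocount of 0.1 and 1.73 with limma voom on the reads. Its Ctrl mean was 0.507 RPKM, so the gene passed the minimum only through the NIC eCA libraries. With no minimum, the limma adjusted p was 0.0338. The call was lost without NIC eCA replicate 1 (adjusted p = 0.1005), without NIC eCA replicate 2 (adjusted p = 0.107) and with the endothelial covariate (adjusted p = 0.191), at log2 fold changes of 0.80, 0.83 and 0.72, over a range of 0.0169 to 0.191 in 15 alternatives.

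The order within the CIP/KIP family differed between libraries. Cdkn1b was the highest of the 10 genes in Ctrl replicates 1 and 2, and Cdkn1a was the highest in Ctrl replicate 3 and in the 3 NIC eCA libraries. The ratio of Cdkn1a to Cdkn1b was 0.707, 0.923 and 1.05 in Ctrl and 1.15, 1.19 and 1.38 in NIC eCA libraries, without overlap. Summed over the family, the level was 62.1, 49.5 and 87.3 RPKM in Ctrl and 93.7, 90.4 and 92.3 RPKM in NIC eCA libraries, and Cdkn1c made up at most 1.96% of it in any library.

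Cdkn2a carries the reading frames of p16 and of ARF, which start from separate first exons, and the RPKM of the row cannot tell them apart. It had 0.0225, 0.0663 and 0.135 RPKM in Ctrl and 0.289, 0.374 and 0.473 RPKM in NIC eCA libraries, the lowest of the 10 genes in every library. The NIC eCA libraries were all higher, but the row held 1, 3 and 6 reads in Ctrl and 12, 15 and 20 reads in NIC eCA libraries. Per depth this was a ratio of 5.08 (exact 95% interval 2.53 to 11.3, for counting error only). With a mean under 1 RPKM it was not tested, and in the fit without the minimum it had a log2 fold change of 0.36 (limma adjusted p = 0.0492).

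Cdkn2b encodes p15, an INK4 inhibitor induced by transforming growth factor beta, and is the neighbor of Cdkn2a on chromosome 4. It had 0.515, 0.667 and 1.07 RPKM in Ctrl and 1.63, 2.14 and 2.41 RPKM in NIC eCA libraries. All NIC eCA libraries were above all Ctrl libraries, of which replicate 3 was the highest. The row held 28 to 125 reads per library, and the ratio per depth was 2.75 (exact 95% interval 2.23 to 3.42, for counting error only). Cdkn2b rose by 0.81 on the log2 scale (SE 0.18, adjusted p = 0.0329 by limma), against 1.38 with a pseudocount of 0.1 and 1.46 with limma voom. With a Ctrl mean of 0.750 RPKM, the gene passed the minimum only through the NIC eCA libraries. The call was lost without Ctrl replicate 1 (adjusted p = 0.0568), Ctrl replicate 2 (0.0702), NIC eCA replicate 1 (0.0923), NIC eCA replicate 2 (0.139) or NIC eCA replicate 3 (0.0619). It was also lost with no minimum, with the length trend removed and with the endothelial covariate, the last at a larger log2 fold change of 0.88 and a larger standard error, over a range of 0.0253 to 0.197 in 15 alternatives.

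Cdkn2c encodes p18, a further inhibitor of the D-type cyclin kinases. The values were 11.02, 18.4 and 8.72 RPKM in Ctrl and 11.7, 9.27 and 9.78 RPKM in NIC eCA libraries. The groups overlapped, and Ctrl replicate 2 stood above the other 5 libraries. The log2 fold change of -0.23 (SE 0.24, adjusted p = 0.527 by limma) changed sign to 0.05 without Ctrl replicate 2 (adjusted p = 0.857) and with the endothelial covariate (adjusted p = 0.940), over a range of 0.196 to 0.940 in 16 alternatives.

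Cdkn2d encodes p19, and its gene had the highest level of the family in each library but Ctrl replicate 2. It had 15.02, 15.8 and 16.6 RPKM in Ctrl and 23.2, 17.3 and 20.1 RPKM in NIC eCA libraries. The groups did not overlap, and NIC eCA replicate 2 was close to the Ctrl libraries. A log2 fold change of 0.33 (SE 0.14) was not called (limma adjusted p = 0.128), nor in any of 16 alternatives, where it ranged from 0.23 without NIC eCA replicate 1 to 0.44 with the endothelial covariate. Cdkn2d and Cdkn2c together made up most of the INK4 sum, which was 26.6, 34.9 and 26.5 RPKM in Ctrl and 36.8, 29.1 and 32.8 RPKM in NIC eCA libraries and overlapped between the groups. Cdkn2b accounted for 1.94%, 1.91% and 4.02% of this sum in Ctrl and 4.44%, 7.34% and 7.36% in NIC eCA libraries.

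Trp53 encodes p53 itself. Its level was 15.3, 22.8 and 23.7 RPKM in Ctrl and 12.4, 13.6 and 17.3 RPKM in NIC eCA libraries. NIC eCA replicate 3 exceeded Ctrl replicate 1, so the groups overlapped. Trp53 had a log2 fold change of -0.47 (SE 0.20, adjusted p = 0.129 by limma), which was -0.21 with the endothelial covariate, and kept its sign in 16 alternatives, in none of which it was called (adjusted p from 0.0538 to 0.651).

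Mdm2 encodes the ubiquitin ligase that marks p53 for degradation and is itself a p53 target. It had 18.9, 19.1 and 24.997 RPKM in Ctrl and 29.0, 33.5 and 34.6 RPKM in NIC eCA libraries. The groups were separate, with Ctrl replicate 3 the nearest to the NIC eCA libraries. Mdm2 rose by a log2 fold change of 0.61 (SE 0.15, adjusted p = 0.0402 by limma), at 2234 to 3904 reads per library. The call was lost without Ctrl replicate 1 (adjusted p = 0.0730), Ctrl replicate 2 (0.0959), NIC eCA replicate 1 (0.111), NIC eCA replicate 2 (0.158) or NIC eCA replicate 3 (0.0773). It was also lost after quantile normalization (0.0712), with no minimum (0.0684) and with the endothelial covariate (0.230, at a log2 fold change of 0.63), over a range of 0.0236 to 0.230 in 16 alternatives.

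Ccng1 encodes cyclin G1, a p53 target that recruits a phosphatase to Mdm2. It had 13.7, 14.4 and 19.0 RPKM in Ctrl and 18.6, 20.8 and 17.3 RPKM in NIC eCA libraries, and the groups overlapped. The log2 fold change of 0.26 (SE 0.15, adjusted p = 0.256 by limma) was not called, and it ranged from 0.18 without Ctrl replicate 1 to 0.396 without Ctrl replicate 3 (adjusted p = 0.0854) over 16 alternatives, none of which called it.

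Mdm2 and Cdkn1a were also set against Trp53 in the same library. The ratio of Mdm2 to Trp53 was 1.24, 0.838 and 1.06 in Ctrl and 2.35, 2.46 and 2.00 in NIC eCA libraries. For Cdkn1a the ratio to Trp53 was 1.66, 1.03 and 1.88 in Ctrl and 3.97, 3.54 and 3.04 in NIC eCA libraries. Neither ratio overlapped between the groups. The ratios were chosen with the values in view and are given as a description, with no test.

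**Figure D2:**
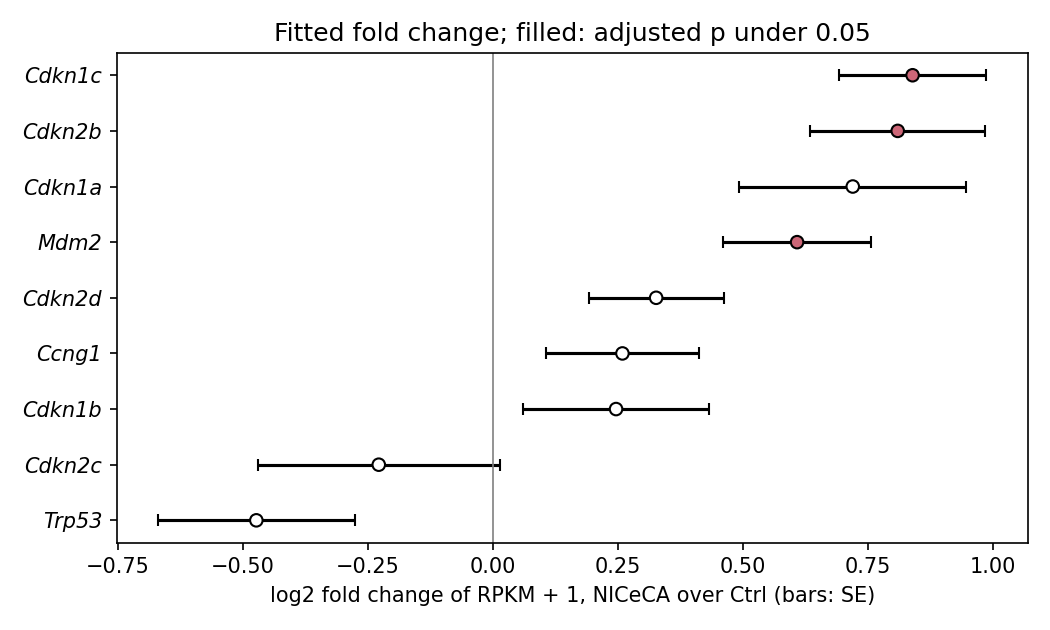
Log2 fold change of RPKM + 1, NIC eCA over Ctrl (horizontal axis), of the 9 genes that passed the minimum of 1 RPKM, with bars for the standard error. Filled points mark the 3 genes with a limma adjusted p under 0.05, Cdkn1c (0.84), Cdkn2b (0.81) and Mdm2 (0.61), and Trp53 (-0.47) and Cdkn2c (-0.23) lie below 0, the latter turning positive with the endothelial covariate and without Ctrl replicate 2. Cdkn1c and Cdkn2b passed the minimum only through the NIC eCA libraries.

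Among the 9 genes tested, 5 had groups that did not overlap, all higher in NIC eCA libraries, where 16.5% of tested rows were separate and higher and 24.4% were separate and lower. Of these 5, Cdkn1c and Cdkn2b passed the minimum only through the NIC eCA libraries, so nothing is read from the count. The RefSeq genes within 10 kb did not share one direction. Kri1, which lies 495 bases from Cdkn2d, went from 17.8, 21.2 and 17.5 RPKM to 11.03, 9.86 and 12.99 RPKM (log2 fold change -0.69 ± 0.14 SE, adjusted p = 0.0298 by limma). Kri1 was not called without Ctrl replicate 2 (adjusted p = 0.0681), NIC eCA replicate 1 (0.114) or NIC eCA replicate 2 (0.132), with no minimum (0.0556) or with the endothelial covariate (0.225, at a log2 fold change of -0.60). Wrap53, which starts opposite Trp53 at a distance of 1035 bases, had 3.53, 3.87 and 3.84 RPKM in Ctrl and 3.22, 2.94 and 3.05 RPKM in NIC eCA libraries (log2 fold change -0.22, adjusted p = 0.199 by limma, and -0.08 after quantile normalization). Nudcd2, near Ccng1, had a log2 fold change of 0.20 (limma adjusted p = 0.318), which was 0.077 without Ctrl replicate 1 and 0.40 with the endothelial covariate. 1190002F15Rik, near Cdkn1b, had one of -0.37 (limma adjusted p = 0.143), which was -0.21 without Ctrl replicate 2, -0.58 with the length trend removed and -0.08 with the covariate. None of these 3 genes was called in any alternative. Ap1m2, Atp1b2 and Cpm had means under 1 RPKM.

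The tested genes with levels most like those of Cdkn1a across the 6 libraries were P4ha1, Slc7a8 and Fem1c, by root mean square differences of 0.062, 0.063 and 0.068 in log2(RPKM + 1) centered on each gene's mean. P4ha1, a collagen prolyl hydroxylase, had 18.1, 17.97 and 30.8 RPKM in Ctrl and 37.7, 34.9 and 36.2 RPKM in NIC eCA libraries, with Ctrl replicate 3 the highest of its group, and like Slc7a8 and Fem1c it was called only without that library or, for P4ha1, also after trimmed mean scaling and with the length trend removed. For Cdkn2b they were A530064D06Rik, Tst and Cd9, at 0.067, 0.073 and 0.081, each called higher with all 6 libraries and not called without Ctrl replicate 1, Ctrl replicate 2 or any 1 NIC eCA library (adjusted p from 0.063 to 0.159). Their calls were also lost with no minimum, with the length trend removed and with the endothelial covariate. That of Cd9 was lost after quantile normalization as well (log2 fold change 0.44, limma adjusted p = 0.121). Since these genes were picked for like levels, likeness in calls follows from the choice. Tst, at 0.631, 0.802 and 1.08 RPKM in Ctrl and 1.55, 1.99 and 2.62 RPKM in NIC eCA libraries, passed the minimum only through the NIC eCA libraries. Cd9, a tetraspanin of many cell surfaces including those of platelets, had 56.5, 52.6 and 76.0 RPKM in Ctrl and 90.3, 110 and 114 RPKM in NIC eCA libraries.

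Other targets of p53 were taken from a list of 38 genes, of which 35 were tested. Of these, 3 were called higher and 2 lower, beside 5.88% and 7.68% of all tested rows. The median log2 fold change was -0.03, beside -0.05 over all tested rows. Gadd45a, a stress protein that binds PCNA, had 21.3, 23.7 and 20.6 RPKM in Ctrl and 47.2, 48.6 and 51.9 RPKM in NIC eCA libraries (log2 fold change 1.14 ± 0.12 SE, adjusted p = 0.00887 by limma). Plk2, a polo-like kinase, and Gdf15, a secreted stress cytokine, also rose, by log2 fold changes of 1.57 and 1.14. Zmat3, a zinc finger RNA-binding protein, fell by 0.91 and Psrc1, a microtubule-binding protein, fell by 0.67 on the log2 scale. Without NIC eCA replicate 2, 0 of the 5 were called, and without NIC eCA replicate 1 or Ctrl replicate 2 the 3 called were Gadd45a, Plk2 and Gdf15. Without Ctrl replicate 1 or NIC eCA replicate 3, Psrc1 was not called. Of the whole list, 7 were higher and 2 lower after trimmed mean scaling, 5 and 3 without Ctrl replicate 3, 4 and 1 after quantile normalization and 4 and 0 with the length trend removed.

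Regulators and relatives of p53 comprised 27 tested genes, with a median log2 fold change of -0.21. Of these, 1 was called higher and 5 lower, beside 5.88% and 7.68% of all tested rows. Crebbp, an acetyltransferase and p53 coactivator, had 14.2, 14.5 and 18.3 RPKM in Ctrl and 8.49, 8.87 and 10.4 RPKM in NIC eCA libraries (log2 fold change -0.70 ± 0.14 SE, adjusted p = 0.0298 by limma). The other 4 lower were Usp10, which removes ubiquitin from p53, the ubiquitin ligase Huwe1, the kinase Hipk2, and Trp53bp1, a protein of DNA repair. Sirt1, a deacetylase that acts on p53, rose from 4.45, 3.90 and 5.01 RPKM to 7.34, 7.87 and 6.47 RPKM (log2 fold change 0.59 ± 0.13 SE, adjusted p = 0.0337 by limma). Without Ctrl replicate 2, NIC eCA replicate 1 or NIC eCA replicate 2, 0 of the 6 were called. Without Ctrl replicate 1 the number was 4 and without Ctrl replicate 3 it was 3. The list had 1 higher and 0 lower with the length trend removed (Sirt1), 1 and 2 after quantile normalization, 2 and 4 after trimmed mean scaling and 0 and 0 with no minimum.

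Of the cyclins, cyclin-dependent kinases and genes that switch these kinases on or off, 21 were tested, with a median log2 fold change of -0.21. Among them, 1 was called higher and 3 lower, beside 5.88% and 7.68% of all tested rows. The kinase Wee1, which holds Cdk1 inactive, had 12.1, 10.4 and 7.62 RPKM in Ctrl and 6.24, 5.11 and 5.16 RPKM in NIC eCA libraries (log2 fold change -0.75 ± 0.17 SE, adjusted p = 0.0362 by limma). The phosphatase Cdc25b, which activates Cdk1, and Pkmyt1, a relative of Wee1, fell by 0.82 and 0.83. Ccng2, a cyclin linked to cell cycle arrest and a relative of Ccng1, rose by 0.72 (limma adjusted p = 0.0409). None of the tested Cdk genes or A-, B-, D- and E-type cyclins was among the genes called. Without Ctrl replicate 2, NIC eCA replicate 1 or NIC eCA replicate 2, 0 of the 4 were called, without Ctrl replicate 1 only Ccng2 was, and without NIC eCA replicate 3 Cdc25b and Ccng2 were. None was called after quantile normalization, with the length trend removed or with no minimum, and after trimmed mean scaling Cdc25b and Ccng2 were.

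Downstream of the INK4 proteins, 19 genes of the RB and E2F group were tested and 0 were called by limma, with a smallest adjusted p of 0.0523 and a median log2 fold change of -0.23. At an unadjusted limma p under 0.05 there were 8 lower and 0 higher, beside 21.1% and 14.4% of all tested rows, and limma voom on the reads called 2 lower. With limma, 1 higher and 1 lower were called without Ctrl replicate 3, 1 lower without Ctrl replicate 1 and 1 lower with no trend. Negative fold changes were found for 15 of the 19, beside 55.3% of all tested rows, and 9 had separate groups, all lower in NIC eCA libraries, beside 24.4%. The list summed to 128.1, 178 and 152 RPKM in Ctrl and 112, 115 and 128.4 RPKM in NIC eCA libraries. Ctrl replicate 2 was thus the highest, as for the proliferation markers, and was the lowest for the endothelial markers, and the part of this in the fold changes was not tested. Tfdp1, the E2F partner with the highest mean level of the list, had 23.0, 39.9 and 26.9 RPKM in Ctrl and 18.3, 17.7 and 22.1 RPKM in NIC eCA libraries (log2 fold change -0.57 ± 0.20 SE, adjusted p = 0.0917 by limma). E2f4, a repressive E2F, and Rbbp4, a histone-binding protein, were not called, at log2 fold changes of -0.44 and 0.11.

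The inhibitor proteins are removed by ubiquitin ligases, of which Rnf123 acts on p27. Among 15 tested genes of this turnover, 1 was called, lower, beside 7.68% of all tested rows. This was Rnf123, at 8.58, 10.0 and 8.45 RPKM in Ctrl and 5.07, 4.68 and 5.82 RPKM in NIC eCA libraries (log2 fold change -0.70 ± 0.13 SE, adjusted p = 0.0231 by limma). It was not called without Ctrl replicate 2, NIC eCA replicate 1 or NIC eCA replicate 2 or with no minimum, and after trimmed mean scaling 3 other genes of the list were called, all higher. Pcna, the clamp that p21 binds, had 80.9, 86.0 and 86.7 RPKM in Ctrl and 121, 125 and 103 RPKM in NIC eCA libraries (limma adjusted p = 0.0523), and Ddb1, an adaptor of Cul4 ligases, had a log2 fold change of -0.24 and was not called.

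Regulators of transcription of the inhibitor genes comprised 33 tested genes, with a median log2 fold change of -0.07. Of these, 3 were called higher and 4 lower, beside 5.88% and 7.68% of all tested rows. Id2, an inhibitor of helix-loop-helix factors, had 28.3, 26.1 and 64.7 RPKM in Ctrl and 127, 129 and 113 RPKM in NIC eCA libraries (log2 fold change 1.73 ± 0.31 SE, adjusted p = 0.0229 by limma). Id1 and the Notch target Hey1 rose by 1.15 and 1.10, while Hes1, another Notch target, had a log2 fold change of -0.16 and was not called. In single cells selected for Cdh5, the paper reports higher Hes1 in the NIC eCA group. Myc, which the paper proposes as a Notch target, had a log2 fold change of -0.78 with overlapping groups and was not called (limma adjusted p = 0.197). The paper reports lower MYC in NIC eCA mice by qRT-PCR of isolated TECs and by immunofluorescence of tumor vessels. Those are other measures than bulk RNA of a CD31 bead fraction that holds RNA of other cells. Cbx7 and Phc1, proteins of the Polycomb complex that keeps the Cdkn2a and Cdkn2b genes silent, fell by 0.86 and 0.67, and the endothelial factor Klf2 fell by 0.79. Cbx2, another Polycomb protein, was the fourth gene called lower and is named after its value was seen. Without Ctrl replicate 2, NIC eCA replicate 1 or NIC eCA replicate 2, 0 of the 7 were called, and 3 or 4 were called without each of the other libraries. Those still called were Id2 and Klf2 after quantile normalization, Cbx7 and Id2 with the length trend removed, 5 of the 7 after trimmed mean scaling and 0 with no minimum.

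Promoter windows from RefSeq (GRCm38.p6, 250 bases before to 50 bases after the start) were found for 9 of the 10 genes, 12 windows in all, and Cdkn1c has none in the table. They were searched on both strands for letters that Notch and p53 effectors and E-box proteins are known to bind. The letters TGGGAA, the core that the Notch effector RBPJ binds, occur in 25.6% of all 32851 windows and in 3 of the 12, those of Cdkn2a, Cdkn2d and Cdkn1a. The E-box CACGTG occurs in 7.15% of all windows and in those of Trp53 and Cdkn2c. The p53 consensus half-site without mismatch, a search added after the data and sequences had been seen, occurs in 8.36% of all windows and in 5 of the 12, those of Cdkn1a, Cdkn2d, Mdm2, Ccng1 and Trp53.

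A pair of p53 half-sites at most 13 bases apart occurs in 24 of the windows (0.0731%), and the upstream Cdkn1a window is among them. A stretch of 80 bases of it is shown because Cdkn1a is a textbook p53 target, at chr17:29090866-29090945 on the plus strand, upstream of the first exon, with the half-sites in capitals:
Cdkn1a: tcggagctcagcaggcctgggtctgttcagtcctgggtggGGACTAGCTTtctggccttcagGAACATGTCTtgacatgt
Stretches of 30 bases from Mdm2, at chr10:117710927-117710956, and Ccng1, at chr11:40755454-40755483, are given for comparison. Both lie on the minus strand and upstream of the gene, with the half-site in capitals:
Mdm2: gcagtcggatagGAACTTGCCTagcgacca
Ccng1: ccagacctgcccGGGCAAGCCTtggcactg
A match describes letters in these windows, and binding was not measured. Half-sites with a mismatch were not searched for, so the capitals need not mark the letters that p53 binds.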

How the data were processed

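The authors deposited RPKM values for 6 libraries. The submitters' processing notes name TopHat2 and mm9, but all 10 genes lie at their GRCm38 place. The way of counting reads, and any use of strand, were not stated in the notes or the methods. Overlapping genes on opposite strands can therefore share reads. Reads were recovered from RPKM times row length, which came out whole (within 0.05) for 100% of values under 1000 reads.

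RefSeq rows with a mean of at least 1 RPKM were fitted as log2(RPKM + 1) by limma 3.58.1 (R 4.3.3), using lmFit and eBayes with its trend, two-sided and Benjamini-Hochberg adjusted. FANTOM3 rows were not tested, since they share reads with RefSeq rows. Alternatives were the replicate number as a block, each library left out with the same rows tested, quantile normalization, trimmed mean scaling (30% and 5%), no minimum (rows at 0 in all libraries left out), 5 RPKM, a pseudocount of 0.1, no trend, voom on the reads, a removed length trend (lowess, span 0.3) and the endothelial marker mean as a covariate. That the same rows stayed in the fits without a library, and that rows at 0 were left out, was decided after a first run had been seen. The procedure was tested on simulated data.

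The members and the 6 gene lists and 10 marker lists, written from general knowledge, were chosen with earlier results of these data known. Named are all 10 genes, up to 6 called genes of each list by smallest p (with the highest levels added up to 3), RefSeq genes within 10 kb, and 3 genes nearest in level to Cdkn1a and Cdkn2b. Further genes, such as C1qa, Cd8a, Gp1bb, Col1a1, Col1a2, Top2a, Hes1 and Myc, are named outside this rule, after values had been seen. Pidd1, Ly6g and Trbc2 were not matched to a row. Intervals were computed with scipy 1.17.1 in Python 3.11.15.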

Additional observations from a re-analysis of the deposited data

Results flagged for a closer look

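A FANTOM3 row on the minus strand at chr17:29093416-29094461, inside the Cdkn1a interval and outside the rows tested, had 14.3, 13.3 and 19.1 RPKM in Ctrl and 22.6, 23.2 and 22.4 RPKM in NIC eCA libraries. It is listed because all NIC eCA libraries lay above all Ctrl libraries, by 0.54 in mean log2(RPKM + 1), at a mean level over 1 RPKM. Rows that were lower were not looked for. Near Cdkn2d, 2 FANTOM3 rows with such a mean differed by more in the other direction: fantom3_F730011P09, which overlaps it on the opposite strand (1.95, 3.58 and 1.29 RPKM in Ctrl and 0.431, 0.673 and 1.07 RPKM in NIC eCA libraries, a difference of -0.88), and fantom3_D230033C05 (a difference of -0.82). Whether the reads of the row inside Cdkn1a come from that gene or from the opposite strand was not tested.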

How the results depend on the processing

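The methods speak of pairs of mice but not of which libraries form them. Deviations from the group means correlated at 0.12 between replicates 1, -0.34 between replicates 2 and -0.18 between replicates 3. They correlated higher between Ctrl 2 and NIC eCA 3 (0.44) and between Ctrl 1 and NIC eCA 2 (0.27). Deviations of 3 libraries from their own mean cancel out, so these correlations cannot decide whether the replicate numbers mark pairs. With the replicate number as a block, 327 rows were higher and 209 lower, and Cdkn1c and Cdkn2b were called but not Mdm2 (limma adjusted p = 0.069). Kri1, Tst and Cd9 were not called either (limma adjusted p = 0.0653, 0.0561 and 0.0581), nor were Mki67, Cenpf, Flt1, Cd93 and Rnf123. Still called were 4 of 5 p53 targets, 1 of 6 p53 regulators (Crebbp), 1 of 4 in the cyclin list (Wee1) and 3 of 7 transcriptional regulators. Of the 24 marker genes called, 13 stayed called. Over all rows, 725 were higher and 946 lower. The counts were 446 and 325 after quantile normalization, 1090 and 660 after trimmed mean scaling, 260 and 105 with no minimum, 629 and 579 from 5 RPKM, 590 and 206 with the length trend removed, 683 and 1337 with voom and 0 and 0 with the endothelial covariate. Leaving out 1 library gave 26 to 913 higher and 1 to 832 lower.

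Of the 10 genes, 3 were higher, against 0 to 4 when a library was left out, 1 from 5 RPKM (where Cdkn1c and Cdkn2b fall under the minimum) and 0 with the endothelial covariate. None was lower in any alternative. The Cdkn2c log2 fold change of -0.2283 ranged from -0.4456 to 0.05277 when a library was left out, positive without Ctrl replicate 2, and was 0.0509 with the covariate, where that of Ddb1 was 0.001894. Cd3g, at -0.001192, ranged from -0.2008 to 0.1619 when a library was left out, positive without Ctrl replicate 1 (0.07624), Ctrl replicate 3 (0.121) or NIC eCA replicate 1, and was 0.08193 after quantile normalization and 0.07488 after trimmed mean scaling. The cause was not tested. Of 142 fits of single members in the alternatives, 118 kept sign and side of the threshold, 20 lost a call, 2 gained one and 2 changed sign; of 1091 for the other named genes, 742, 334, 9 and 6 did so.

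With 3 libraries a group and 1 to 20 reads on Cdkn2a, small differences were not detectable at this depth. The endothelial marker mean was higher in the NIC eCA libraries than in Ctrl replicates 2 and 3, so covariate and group could not be fully told apart.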
